A study of Homo sapiens with 6 samples.

Results

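The genes described here are 9 targets of the tumour suppressor p53 that were chosen by symbol: MDM2, GADD45A, RRM2B, SESN1, ZMAT3, BAX, BBC3, FDXR and TP53I3. All 9 of these symbols were found among the 17088 genes of the deposited table, and all 9 passed the filter on low values that left 10909 genes for testing. The study measured RNA in MDA-MB-231 cells, a human breast cancer line. There were 3 libraries of cells with a control vector (VecNC, treatment NC) and 3 libraries of cells with a vector for overexpression of the noncoding RNA RPPH1 (VecRPPH1), the RNA component of RNase P. The comparison asks which transcripts differ when RPPH1 is overexpressed. No time point, vector backbone or clone was given in the labels, and it is not known whether replicates were grown separately. The p-values therefore rest on a spread among libraries that may be technical.

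p53 is a transcription factor that is activated by DNA damage and other stress, binds paired decamer elements near its target genes and switches on growth arrest, DNA repair, metabolic adjustment and cell death. MDM2, itself a target, is a ubiquitin ligase that marks p53 for destruction and so closes a feedback loop. MDA-MB-231 cells carry only a mutant p53 with a missense change in its DNA-binding domain, which has lost most of the normal activity at such elements. Many of the target genes are also known to respond to regulators other than p53.

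Promoter windows are shown for the 3 members in which the letters of the p53 element can be read. RefSeq windows on GRCh38.p14, from 250 bases before to 50 bases after an annotated transcription start, were found for 7 of 9 members. Each was scanned for the p53 consensus, a 10-base unit repeated without a spacer, with at most 3 mismatches over the 20 bases. The unit is its own reverse complement, so 1 scan covers both strands, and the mismatch limit was chosen after windows had been seen. Capitals mark each 20-base match. The MDM2 window, chr12:68808767-68809066 on the plus strand, belongs to the internal promoter through which p53 is known to act. The SESN1 window, chr6:109008939-109009238, and the FDXR window, chr17:74872945-74873244, lie on the minus strand. The SESN1 window is also at an internal start, since the upstream end of the gene is at 109094819. The SESN1 window at that end, chr6:109094797-109095096, held no match, and neither did chr6:109009503-109009802. Each had 5 mismatches at the fewest. The MDM2 windows chr12:68807922-68808221 and chr12:68807927-68808226 also held no match, with 5 mismatches at the fewest in each. The FDXR window chr17:74868704-74869003 held none either, with 4 at the fewest.
MDM2: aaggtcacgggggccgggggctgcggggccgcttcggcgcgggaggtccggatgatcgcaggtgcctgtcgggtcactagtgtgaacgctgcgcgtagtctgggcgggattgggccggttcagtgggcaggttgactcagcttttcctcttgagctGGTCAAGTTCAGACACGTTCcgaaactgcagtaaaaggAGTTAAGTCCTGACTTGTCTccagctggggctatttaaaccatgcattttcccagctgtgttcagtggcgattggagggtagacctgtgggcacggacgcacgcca
SESN1: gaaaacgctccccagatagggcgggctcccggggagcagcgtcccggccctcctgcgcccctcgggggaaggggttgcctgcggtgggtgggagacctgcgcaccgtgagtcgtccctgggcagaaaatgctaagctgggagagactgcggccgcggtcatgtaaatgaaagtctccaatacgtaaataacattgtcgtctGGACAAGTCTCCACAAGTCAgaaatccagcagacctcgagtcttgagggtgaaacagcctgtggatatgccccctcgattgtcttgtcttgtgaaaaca
FDXR: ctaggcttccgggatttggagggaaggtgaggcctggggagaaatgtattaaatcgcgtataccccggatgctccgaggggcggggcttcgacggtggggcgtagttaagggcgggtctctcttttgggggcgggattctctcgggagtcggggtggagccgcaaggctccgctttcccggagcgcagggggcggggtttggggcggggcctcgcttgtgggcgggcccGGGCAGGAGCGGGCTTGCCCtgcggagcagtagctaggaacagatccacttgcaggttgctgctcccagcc

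The MDM2 window held a pair of matches, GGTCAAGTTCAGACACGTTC with 2 mismatches, starting 94 bases before the transcription start, and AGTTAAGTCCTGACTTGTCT with 3, starting 56 bases before it. The SESN1 match, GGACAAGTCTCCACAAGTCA, and the FDXR match, GGGCAGGAGCGGGCTTGCCC, each had 3 mismatches and started 49 and 21 bases before the transcription start. Counted per window, 4 of 14 member windows held such a match (28.6%; MDM2 counts 2 times, through overlapping windows), against 5.2% of 35116 windows in the table. Counted per gene, it was 3 of 7 members (42.9%), 16 of 56 other p53 targets with a window (28.6%) and 505 of 8960 tested genes with a window (5.6%). A perfect 10-base unit alone was present in 2 of 14 member windows and in 6.63% of all windows. The SESN1 and FDXR matches sit at the limit of 3 mismatches, which was chosen after windows had been seen. The member shares with a 20-base match therefore cannot serve as a test against all genes. All of these are matches of letters, and no binding was measured. The RNA values of these 3 members are given with their roles below.

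The fragments recovered from the values came to between 17389189 and 18586767 per library. Control replicate 1 was far from the rest in a principal component analysis, with a first-component score of -10.9 where the other 5 libraries scored -0.11 to 4.4. The 5 marker genes of this mesenchymal line were abundant, with VIM between 2585 and 2743 FPKM and AXL between 196 and 213 FPKM. Of the markers of luminal breast lines, KRT8, KRT18, EPCAM and GATA3 were detected, and ESR1, FOXA1 and CDH1 stayed below 1 FPKM in all 6 libraries, as did every leukocyte, endothelial and fibroblast marker that was listed. Summed markers of the line were 3688 to 3779 FPKM in the controls and 3588 to 3625 FPKM in the RPPH1 libraries, without overlap. VIM made up most of these sums. VIM and MSN were lower in every RPPH1 library and neither passed by limma (adjusted p 0.672 and 0.617). AXL and ITGB1 had lower means and CD44 a higher mean in RPPH1 cells, all with groups that overlapped. Summed luminal markers were 295 to 315 FPKM and 311 to 319 FPKM, with overlap. GATA3 and KRT18 were higher in every RPPH1 library and neither passed by limma (adjusted p 0.643 and 0.765), while KRT8 and EPCAM overlapped. The part of either list in the results was not tested. RPPH1 itself was not analysed here, and the overexpression was therefore not checked. CDKN2A, which encodes an MDM2 inhibitor and is known to be deleted in this line, was between 0.115 and 0.421 FPKM.

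No difference between control and RPPH1 cells was detected for any of the 9 p53 targets. None of the 9 passed at an adjusted p under 0.05 by limma on log2(FPKM + 1), against 0.00917% of all 10909 genes, which is 1 gene. None had an unadjusted p under 0.05 in this fit either, against 7.97% of all genes. limma-voom on the recovered fragments also called 0 of 9, with 0 at an unadjusted p under 0.05, where the shares of all genes were 0.147% and 8.67%. SESN1 was the single member whose groups did not overlap, 1 of 9 where 13.9% of all genes did not overlap and 7.98% did so with RPPH1 cells higher. Mean log2(FPKM + 1) was higher in RPPH1 cells for 6 members and lower for 3, with a median difference of 0.02 beside 0.0046 for all genes tested. Each member's 95% interval included 0. The widest limits were 0.34 on the upper side, for BBC3, and -0.26 on the lower side, for FDXR and GADD45A. Differences of 1 on the log2(FPKM + 1) scale therefore lay outside every interval. Because 1 FPKM was added, this scale understates differences of genes at low levels, SESN1 most among the members.

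**Figure D1:**
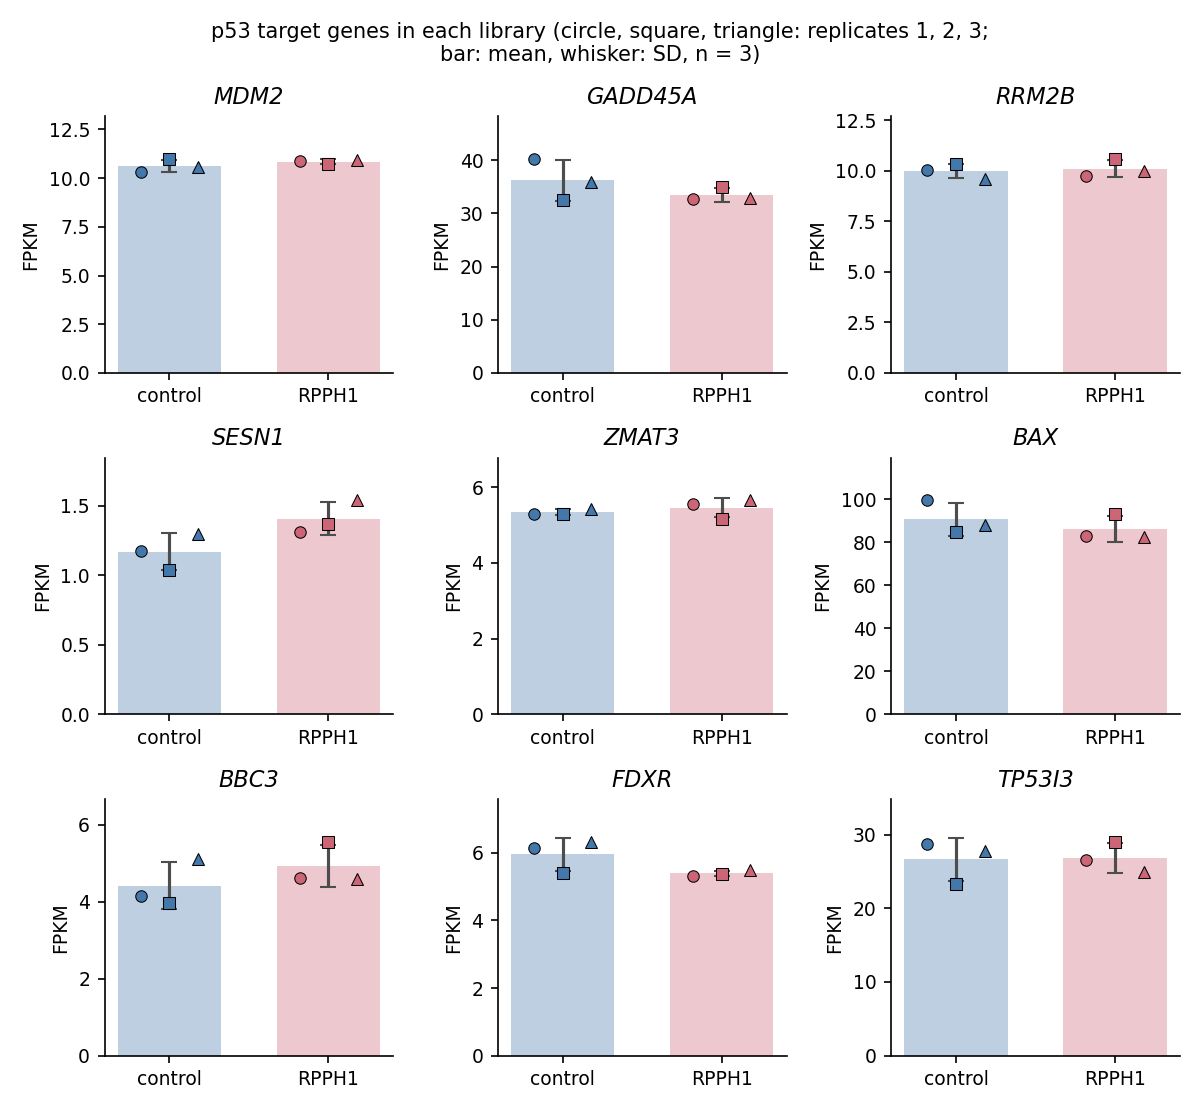
FPKM of the 9 p53 target genes in each library, with 1 panel per gene, a vertical axis from 0, bars for the group mean, whiskers for the SD (n = 3) and symbols for replicates 1, 2 and 3. The control and RPPH1 symbols overlap in every panel except that of SESN1, where the highest control library is at 1.30 FPKM and the lowest RPPH1 library at 1.31 FPKM.

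The members covered a wide range of levels. BAX was the most abundant per length, with a mean of 88.3 FPKM over the 6 libraries, and stood above 94.0% of tested genes. GADD45A (34.9 FPKM) and TP53I3 (26.7 FPKM) followed, and the lowest library of each lay above the highest library of the next gene in this order. MDM2 (10.7 FPKM) and RRM2B (10.05 FPKM) could not be ordered, since their ranges met between 10.3 and 10.6 FPKM. FDXR (5.67 FPKM), ZMAT3 (5.40 FPKM) and BBC3 (4.67 FPKM) formed a lower set, apart from RRM2B above and SESN1 below, in which FDXR overlapped with ZMAT3 and ZMAT3 with BBC3. SESN1 was the least abundant, with a mean of 1.29 FPKM, above 3.0% of tested genes. The median level of tested genes was 11.3 FPKM.

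MDM2, the feedback ligase, was the steadiest of the 9. It was at 10.3, 10.98 and 10.6 FPKM in control replicates 1, 2 and 3 and at 10.9, 10.7 and 10.9 FPKM in RPPH1 replicates 1, 2 and 3. The 3 RPPH1 libraries lay inside the range of the controls. Means were 10.6 ± 0.322 FPKM and 10.9 ± 0.108 FPKM (group mean ± SD with n = 3, here and below). RPPH1 cells differed from controls by a log2 value of 0.03 with an SE of 0.0464 and a 95% interval of -0.08 to 0.13 (limma adjusted p 0.918). This gene, whose internal promoter holds both matches printed above, rested on 1452 to 1506 fragments per library. MDM4, the relative of MDM2 that binds and masks p53, was at 5.47 ± 0.259 FPKM in control cells and 5.37 ± 0.106 FPKM with RPPH1 (limma adjusted p 0.941). Genes like MDM2 were searched for without symbols of clone, locus, LINC, antisense, open reading frame, FLJ, KIAA and FAM types. Each gene was centred on its own mean over the 6 libraries. The remaining tested genes closest to MDM2 in these log2 values were ZC3H11A, IL17RA and GNB1. Their root mean square differences from MDM2 were 0.0106, 0.011 and 0.0113 on the log2(FPKM + 1) scale. The median over the genes compared was 0.0717. These 3 were picked as the smallest differences, so their place below the median was fixed by the choice. The spread of MDM2 between replicates was below its counting error (2.26% against 2.61%), and shared regulation was not tested.

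Arrest and repair were represented by GADD45A and RRM2B. GADD45A, which encodes a stress sensor that restrains the cell cycle and acts in repair, was at 40.2, 32.5 and 35.9 FPKM in control replicates 1, 2 and 3. In RPPH1 replicates 1, 2 and 3 it was at 32.6, 34.98 and 32.9 FPKM. Control replicate 1 was the highest of the 6, and control replicate 2 lay just below the lowest RPPH1 library. On the log2(FPKM + 1) scale the difference was -0.10 with an SE of 0.0689 and a 95% interval of -0.26 to 0.05 (limma adjusted p 0.73). Among its paralogues, GADD45B was at 20.95 ± 0.466 FPKM in control cells and 19.8 ± 0.629 FPKM with RPPH1, with groups that did not overlap (limma adjusted p 0.68). GADD45G stayed below 0.206 FPKM and was not tested.

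RRM2B encodes the p53-inducible small subunit of ribonucleotide reductase, which supplies deoxynucleotides for repair outside S phase. It was at 10.05, 10.3 and 9.61 FPKM in control replicates 1, 2 and 3 and at 9.77, 10.6 and 9.99 FPKM in RPPH1 replicates 1, 2 and 3. The groups overlapped almost fully. The log2 difference was 0.02 with an SE of 0.0516 and a 95% interval of -0.10 to 0.13 (limma adjusted p 0.959). Its S-phase counterpart RRM2 was at a far higher level per length, at 88.9 ± 4.35 FPKM and 85.4 ± 3.53 FPKM, and the shared large subunit RRM1 was at 65.9 ± 2.29 FPKM and 68.9 ± 1.32 FPKM. Neither passed by limma (adjusted p 0.794 and 0.708).

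Stress adaptation and RNA regulation were represented by SESN1 and ZMAT3. SESN1 encodes a sestrin, a stress protein that restrains mTORC1 signalling. It was at 1.18, 1.04 and 1.30 FPKM in control replicates 1, 2 and 3 and at 1.31, 1.37 and 1.54 FPKM in RPPH1 replicates 1, 2 and 3. Every RPPH1 library was above every control library, although control replicate 3 and RPPH1 replicate 1 nearly met. The mean FPKM differed by 20.2%, the largest percentage among the 9, and the log2(FPKM + 1) difference was 0.15 with an SE of 0.0787 and a 95% interval of -0.03 to 0.33 (limma adjusted p 0.672). At this low level the added 1 FPKM shrinks the difference, which was 0.27 by limma-voom on fragments (adjusted p 0.623). In fragments, SESN1 had 135, 115 and 145 in the control libraries and 146, 150 and 165 in the RPPH1 libraries, so that control replicate 3 and RPPH1 replicate 1 were 1 fragment apart. Of the other sestrins, SESN2 was at 6.74 ± 0.381 FPKM and 6.71 ± 0.699 FPKM (limma adjusted p 0.983), and SESN3 was below 0.954 FPKM and not tested.

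ZMAT3 encodes a zinc finger protein that binds RNA and influences splicing and transcript stability. It was at 5.30, 5.28 and 5.43 FPKM in control replicates 1, 2 and 3 and at 5.55, 5.17 and 5.65 FPKM in RPPH1 replicates 1, 2 and 3. RPPH1 replicate 2 was below all controls and the other RPPH1 libraries were above them. RPPH1 cells differed from controls by a log2 value of 0.03 with an SE of 0.0549 and a 95% interval of -0.10 to 0.15 (limma adjusted p 0.934). Of the genes named in the same zinc finger series, ZMAT1 had 1.74 ± 0.291 FPKM in control cells and 1.54 ± 0.163 FPKM with RPPH1 (limma adjusted p 0.81). ZMAT2 had 42.98 ± 0.237 FPKM and 43.8 ± 0.517 FPKM, with groups that did not overlap (limma adjusted p 0.886).

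BAX and BBC3 act in the mitochondrial death pathway. BAX encodes the pore-forming effector and was at 99.3, 84.6 and 87.7 FPKM in control replicates 1, 2 and 3. It was at 82.7, 93.1 and 82.5 FPKM in RPPH1 replicates 1, 2 and 3. Control replicate 1 and RPPH1 replicate 2 were the high libraries, and the groups overlapped. On the log2(FPKM + 1) scale the difference was -0.07 with an SE of 0.066 and a 95% interval of -0.22 to 0.08 (limma adjusted p 0.815). BAK1, the other main effector, was at a lower level per length, 30.6 ± 0.410 FPKM in control cells and 31.3 ± 0.357 FPKM with RPPH1 (limma adjusted p 0.861). BOK, a further relative of BAX, was at 10.7 ± 0.827 FPKM and 9.70 ± 0.713 FPKM (limma adjusted p 0.68).

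BBC3 encodes PUMA, a BH3-only protein that binds the antiapoptotic BCL2 relatives. It was at 4.16, 3.98 and 5.12 FPKM in control replicates 1, 2 and 3 and at 4.63, 5.56 and 4.59 FPKM in RPPH1 replicates 1, 2 and 3. Control replicate 3 exceeded RPPH1 replicates 1 and 3, so the groups overlapped. The log2 difference was 0.13 with an SE of 0.092 and a 95% interval of -0.07 to 0.34 (limma adjusted p 0.744), on 172 to 237 fragments per library. PMAIP1, which encodes the BH3-only protein NOXA, was at 39.6 ± 1.39 FPKM and 44.0 ± 0.545 FPKM with groups that did not overlap, and missed the threshold (limma adjusted p 0.404). BCL2L11, which encodes BIM, was at 2.43 ± 0.155 FPKM and 2.49 ± 0.242 FPKM (limma adjusted p 0.957). Of the antiapoptotic partners, MCL1 was at 154 ± 9.16 FPKM and 156 ± 2.00 FPKM (limma adjusted p 0.937). BCL2L1 was at 107 ± 4.94 FPKM and 114 ± 1.06 FPKM, with groups that did not overlap (limma adjusted p 0.642). BCL2 was at 1.76 ± 0.173 FPKM and 1.66 ± 0.0266 FPKM (limma adjusted p 0.901).

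FDXR and TP53I3 encode oxidoreductases. FDXR, the mitochondrial reductase that passes electrons to ferredoxins for steroid, haem and iron-sulphur cluster synthesis, was at 6.14, 5.40 and 6.32 FPKM in control replicates 1, 2 and 3. In RPPH1 replicates 1, 2 and 3 it was at 5.32, 5.37 and 5.47 FPKM. Control replicates 1 and 3 were the high libraries, and control replicate 2 fell among the RPPH1 libraries. RPPH1 cells differed from controls by a log2 value of -0.12 with an SE of 0.063 and a 95% interval of -0.26 to 0.02 (limma adjusted p 0.673). In RPPH1 cells the SD was 0.0774 FPKM, against 0.489 FPKM in controls, and 2 of those 3 RPPH1 libraries held 207 fragments and the third 209. The RPPH1 spread, 1.435% of the mean, was below the 6.71% that counting alone would give. A difference in spread between the groups was not tested. The ferredoxin genes did not pass, with FDX1 at 9.99 ± 0.550 FPKM and 10.4 ± 0.383 FPKM and FDX2 at 29.8 ± 4.14 FPKM and 29.7 ± 3.12 FPKM (limma adjusted p 0.817 and 0.999). CYP27A1, a mitochondrial hydroxylase that receives electrons through this chain, was at 1.21 ± 0.0996 FPKM and 1.65 ± 0.431 FPKM on as few as 47 fragments, with groups that did not overlap (limma adjusted p 0.617).

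TP53I3, a quinone oxidoreductase known as PIG3, was at 28.7, 23.3 and 27.8 FPKM in control replicates 1, 2 and 3. In RPPH1 replicates 1, 2 and 3 it was at 26.5, 29.02 and 24.9 FPKM. The lowest library was a control and the highest an RPPH1 library, with the rest interleaved. On the log2(FPKM + 1) scale the difference was 0.01 with an SE of 0.0794 and a 95% interval of -0.17 to 0.19 (limma adjusted p 0.978). Its relative CRYZ, also a quinone oxidoreductase, was at 21.8 ± 0.674 FPKM and 22.1 ± 0.104 FPKM (limma adjusted p 0.918).

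**Figure D2:**
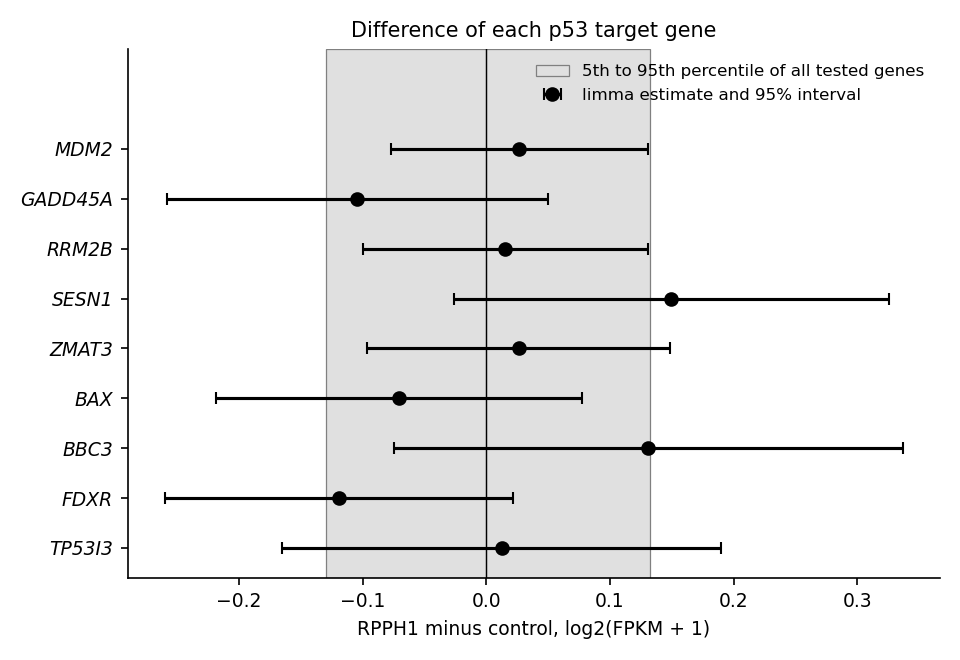
Difference of each p53 target gene, RPPH1 minus control, on the log2(FPKM + 1) scale, with the limma estimate as a point, its 95% interval as a bar and the range from the 5th to the 95th percentile of all 10909 tested genes in grey (-0.13 to 0.13). Every bar crosses 0, and SESN1 is the point farthest to the right, at 0.15.

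The members differed in how far replicates spread. The coefficient of variation between replicates, pooled over both groups, was 2.26% for MDM2, 5.9% for FDXR, 3.47% for ZMAT3, 3.87% for RRM2B and 9.86% for SESN1. Counting the recovered fragments alone would give 2.61%, 6.71%, 3.29%, 3.29% and 8.37%, so these 5 genes varied by 0.865 to 1.18 times the counting error. For BAX, GADD45A, TP53I3 and BBC3 the spread was 2.97, 2.34, 2.33 and 1.78 times the counting error, where the median over tested genes was 1.54 times. These figures describe counting error only and carry no test.

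**Figure D3:**
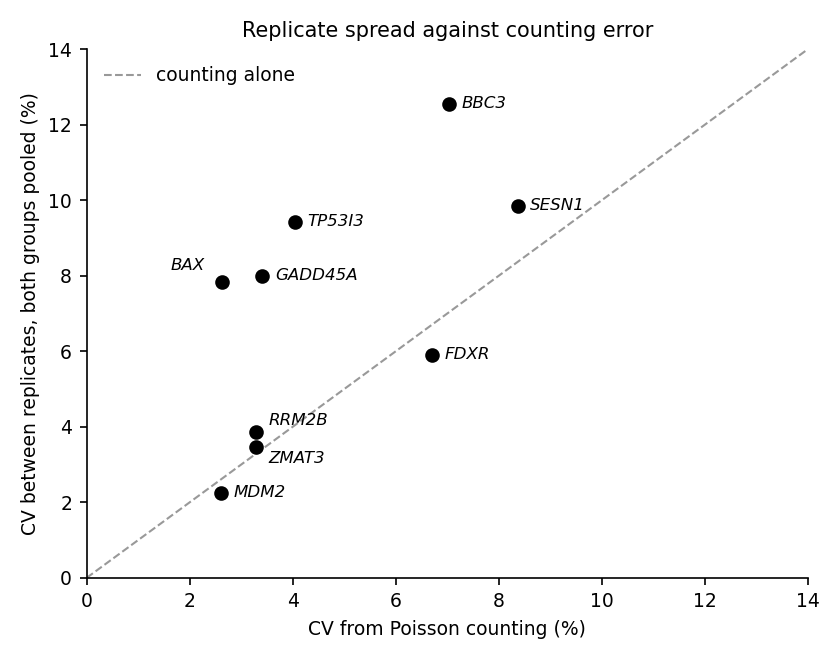
Coefficient of variation between replicates, pooled over both groups, against that expected from Poisson counting of the recovered fragments, both in percent, with 1 point per gene and a dashed line where they are equal. BAX, GADD45A, TP53I3 and BBC3 lie well above the line, at 1.78 to 2.97 times the counting error, and the other 5 genes lie close to it.

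The highest and lowest values of the members within each group were placed by library. With 9 members and 3 libraries per group, some members must share a library. No share of all tested genes was set beside these counts, so they carry no test. In controls, replicate 1 held the highest value of GADD45A, BAX and TP53I3, replicate 3 that of BBC3, SESN1, FDXR and ZMAT3, and replicate 2 the lowest value of 7 of the 9 members. In RPPH1 cells, replicate 2 held the highest value of GADD45A, BBC3, BAX, TP53I3 and RRM2B, and replicate 3 that of MDM2, SESN1, FDXR and ZMAT3. MDM2 was at its control low in replicate 1 and its control high in replicate 2, opposite to BAX and GADD45A. The spread of MDM2 between replicates was, however, below its counting error (2.26% against 2.61%). Control replicate 1 is also the library with the outlying first-component score; without it, the log2 difference was -0.03 for GADD45A and -0.0028 for BAX. Without control replicate 2 these differences were -0.18 and -0.12, and without RPPH1 replicate 2 they were -0.13 for both. In none of the 6 fits that left out a library did any of the 9 members pass by limma.

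**Figure D4:**
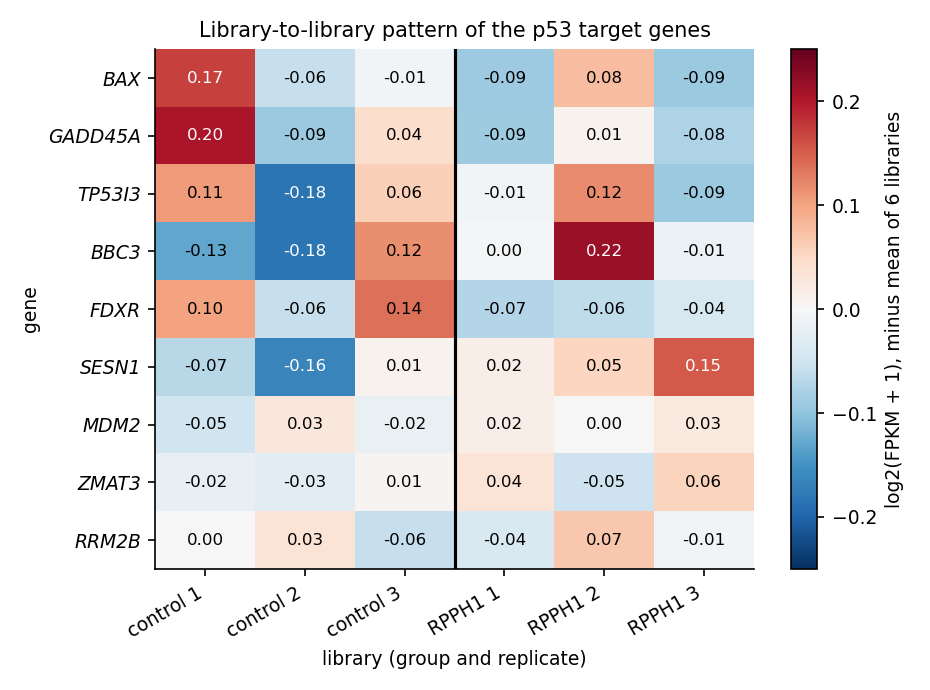
Log2(FPKM + 1) of each p53 target gene in each library after subtracting the gene's mean over the 6 libraries, in colour and as numbers, with a black line between control and RPPH1 libraries. BAX and GADD45A are highest in control replicate 1, at 0.17 and 0.20, and BBC3 and TP53I3 are highest in RPPH1 replicate 2, at 0.22 and 0.12.

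Other genes of the p53 network were read from lists chosen by role. Of the 18 tested partners and paralogues given above with the members, 0 passed by limma and 0 by limma-voom, with 2 and 1 at an unadjusted p under 0.05. Of 24 tested regulators and relatives of p53, 0 passed by limma and 0 by limma-voom, with 3 and 2 at an unadjusted p under 0.05. The median log2 difference of the regulators and relatives was -0.01, with 9 means higher and 15 lower in RPPH1 cells. Of all genes, 7.97% by limma and 8.67% by limma-voom had an unadjusted p under 0.05. The groups did not overlap in 5 of the 18 partners and paralogues. They did not overlap in 4 of the 24 regulators and relatives either, namely RPL11, PPP1R13L, KAT5 and CHEK1. Of all genes, 13.9% did not overlap. RPL11, a ribosomal protein that can bind and restrain MDM2, was at 337 ± 8.12 FPKM in control cells and 361 ± 9.63 FPKM with RPPH1 (limma adjusted p 0.53). PPP1R13L, which encodes the p53 inhibitor iASPP, was at 27.8 ± 1.26 FPKM and 25.5 ± 0.815 FPKM (limma adjusted p 0.573). The acetyltransferase gene KAT5 was at 25.5 ± 0.177 FPKM and 27.4 ± 1.05 FPKM, and the checkpoint kinase gene CHEK1 at 14.6 ± 0.5998 FPKM and 15.7 ± 0.456 FPKM (limma adjusted p 0.617 and 0.665). The p53 relatives TP63 and TP73 were below 1 FPKM in all libraries and were not tested.

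The lists of other p53 targets held 71 genes, of which 60 were tested. limma called 0 of the 60, with 5 at an unadjusted p under 0.05, and limma-voom called 0 higher and 1 lower (0.055% and 0.0917% of all genes), with 6 at an unadjusted p under 0.05. The mean was higher in RPPH1 cells for 33 and lower for 27, and the median log2 difference was 0.01, beside 0.0046 for all genes tested. The groups did not overlap in 7 of the 60 (11.7%), where 13.9% of all genes did not overlap. These 7 were CDKN1A, PLK2, E2F7, TP53INP1, PMAIP1, PIDD1 and FUCA1. Of all genes, 7.97% by limma and 8.67% by limma-voom had an unadjusted p under 0.05.

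The gene called by limma-voom was CDKN1A, which encodes the CDK inhibitor p21. It was at 72.7, 75.5 and 75.6 FPKM in control replicates 1, 2 and 3 and at 61.1, 64.7 and 64.5 FPKM in RPPH1 replicates 1, 2 and 3. All RPPH1 libraries lay below all controls (limma log2 difference -0.23, limma adjusted p 0.182, limma-voom adjusted p 0.0231).

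Of 16 tested arrest and feedback targets, 9 had higher and 7 lower means, with a median log2 difference of 0.01. Beside CDKN1A, PLK2, a polo-like kinase gene, was at 92.5 ± 2.86 FPKM in control cells and 105 ± 1.16 FPKM with RPPH1 (limma adjusted p 0.272, limma-voom adjusted p 0.06). E2F7, which encodes a repressor of E2F targets, was at 50.3 ± 1.23 FPKM and 46.98 ± 0.397 FPKM (limma adjusted p 0.573). TP53INP1, a proapoptotic and autophagy gene, was at 2.40 ± 0.168 FPKM and 2.74 ± 0.156 FPKM (limma adjusted p 0.668).

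DNA repair targets gave 8 higher and 3 lower means among 11 tested genes, none at an unadjusted p under 0.05 by limma or limma-voom. DDB2, which recognises ultraviolet damage, was at 16.2 ± 0.887 FPKM in control cells and 17.2 ± 0.559 FPKM with RPPH1, and FBXO22, a ubiquitin ligase component, at 12.7 ± 0.535 FPKM and 13.5 ± 0.726 FPKM (limma adjusted p 0.726 and 0.713). ASCC3 was at 7.49 ± 0.199 FPKM and 7.74 ± 0.400 FPKM and the DNA ligase gene LIG1 at 24.0 ± 1.67 FPKM and 23.3 ± 1.204 FPKM (limma adjusted p 0.883 for both).

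Death targets gave 7 higher and 10 lower means among 17 tested genes, with 1, PMAIP1, at an unadjusted p under 0.05. PIDD1, which encodes a death domain scaffold, was at 5.44 ± 0.498 FPKM in control cells and 4.81 ± 0.264 FPKM with RPPH1, with groups that did not overlap (limma adjusted p 0.648). AEN, a nuclease gene, was at 6.77 ± 0.962 FPKM and 5.94 ± 0.464 FPKM, and BLCAP at 18.4 ± 0.887 FPKM and 17.8 ± 0.712 FPKM (limma adjusted p 0.68 and 0.854). The metabolism and stress targets gave 9 higher and 7 lower means among 16. FUCA1, a lysosomal fucosidase gene, was at 10.8 ± 0.554 FPKM and 12.96 ± 0.418 FPKM, with groups that did not overlap (limma adjusted p 0.32, limma-voom adjusted p 0.162). SCO2, a cytochrome oxidase assembly gene, was at 12.6 ± 1.81 FPKM and 11.1 ± 0.894 FPKM, and CMBL, a hydrolase gene, at 9.55 to 10.7 FPKM and 10.4 to 10.98 FPKM (limma adjusted p 0.692 and 0.715). DDIT4, a stress-induced inhibitor of mTORC1 signalling, was at 127 FPKM in control replicate 1 and between 176 and 200.4 FPKM in the other 5 libraries (limma adjusted p 0.767).

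**Figure D5:**
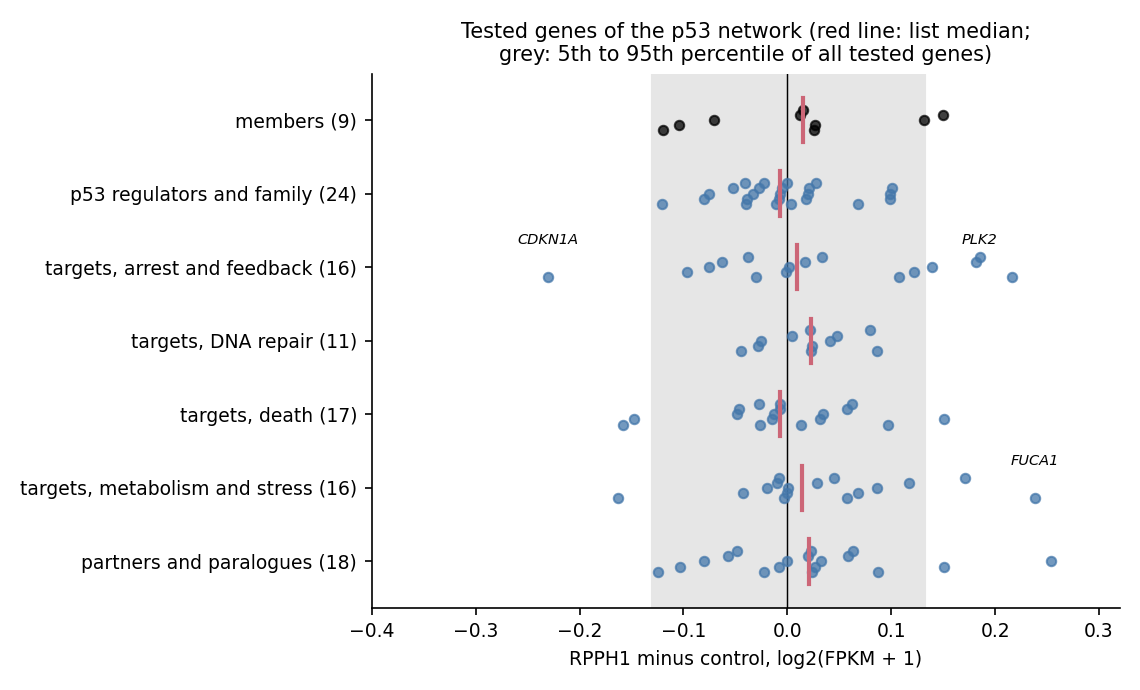
Difference of each tested gene of the p53 network, RPPH1 minus control on the log2(FPKM + 1) scale, with 1 row per list (number of tested genes in brackets), a red line at the list median and the 5th to 95th percentile of all tested genes in grey. The medians lie between -0.01 and 0.02, and CDKN1A (-0.23) is the point farthest to the left.

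Of the 9 members, 4 share bases with other annotated genes. In GENCODE 29 on GRCh38, MDM2 (chromosome 12, 68808176 to 68850686, plus strand) overlaps 4 annotated genes, 2 of them on the opposite strand and CPM among these. TP53I3 (chromosome 2, 24077433 to 24085861, minus strand) overlaps FAM228B on the opposite strand. BBC3 (chromosome 19, 47220822 to 47232766, minus strand) overlaps a pair of microRNA genes, and SESN1 (chromosome 6, 108986437 to 109094819, minus strand) an antisense and a small nuclear RNA gene. The libraries were stranded, but the sources used here do not give whether counting used strand, so reads of partners on opposite strands cannot be told apart. BAX (chromosome 19, 48954815 to 48961798, plus strand), GADD45A (chromosome 1, 67685061 to 67688338, plus strand), FDXR (chromosome 17, 74862497 to 74873031, minus strand), ZMAT3 (chromosome 3, 179017223 to 179072279, minus strand) and RRM2B on chromosome 8 overlap no other annotated gene. In bulk RNA, fewer cells expressing a gene and less RNA per cell cannot be told apart.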

How the data were processed

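RNA was measured in 6 libraries of MDA-MB-231 cells, grouped by title into 3 control and 3 RPPH1 libraries. Per the labels' protocols, libraries were made with a stranded mRNA kit. Per the submitters' processing notes, Trimmomatic, HISAT2, Cufflinks and GRCh38 were used; their versions and roles and the annotation release were not given in the sources used here. Values were deposited as FPKM: the authors scaled fragments to gene length and library total, with 1 column per library; 0 other columns of per-sample values were present.

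Fragment numbers were recovered from the steps in the FPKM values, to within 0.01 fragments plus a relative error of 3e-08, for all 10909 genes that were tested. They give depth and counting error; a common factor of a gene's fragment numbers cannot be seen. The filter kept genes that reached 1 FPKM in 3 or more libraries. Values were tested as log2(FPKM + 1) by limma 3.58.1 (R 4.3.3), whose empirical Bayes step used a mean-variance trend, and p-values were adjusted by Benjamini-Hochberg over all of them, two-sided, at 0.05. This scale understates differences of genes at low levels. An exact permutation of 3 against 3 libraries cannot go below p = 0.1. Code was tested on simulated data. The alternatives were a pseudocount of 0.1, no filter, median-of-ratios rescaling, limma-voom, the replicate number as a block and leaving out each library.

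The members and lists were chosen with earlier results of these data known. All 9 members are named, and from each other list up to 4 genes with the smallest p, all partners and paralogues, and the 3 genes most like MDM2. TP63, TP73 and CDKN2A were named for their role. Of the genes of the p53 network, 2 are not reported here.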

Additional observations from a re-analysis of the deposited data

How the results depend on the processing

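The count of members called was 0 under all 11 alternatives. The count of genes called among all tested, 1 as reported, was 0 with no filter on low values (16293 genes), 0 with the replicate block and 16 by limma-voom; leaving out a library gave 0 to 7, with 7 when control replicate 1 was absent, 1 when RPPH1 replicate 3 was absent and 0 for each of the other 4 libraries. Of 99 tested list genes, 0 were called as reported or without any 1 library, and 1 by limma-voom (CDKN1A, adjusted p 0.0231). Of 99 member differences under alternatives, 95 kept direction and side of the threshold and 4 changed sign, none of them called: TP53I3 (-0.0763 and -0.0441 when control replicate 2 and RPPH1 replicate 2 were left out; range over libraries left out -0.0763 to 0.0683) and RRM2B (-0.0098 and -0.0147 when control replicate 3 and RPPH1 replicate 2 were left out; range -0.0147 to 0.038). With a library left out, the other members, none of them called, ranged from -0.1765 to -0.028 (GADD45A), -0.1273 to -0.0028 (BAX), -0.178 to -0.0806 (FDXR), 0.0561 to 0.2216 (BBC3), 0.1047 to 0.1915 (SESN1), 0.008 to 0.0476 (MDM2) and 0.0044 to 0.0588 (ZMAT3). The causes were not tested. Same-numbered libraries were not paired by their data: the correlations of their deviations were 0.057, 0.018 and -0.104 for numbers 1, 2 and 3, and the labels give no shared source. Depth limits SESN1, BBC3 and FDXR most, at 115 to 249 fragments per library.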
